A study of Mus musculus with 8 samples.

Results

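Matricellular proteins are secreted into the extracellular matrix, where they act on cells, growth factors and proteases more than they bear load. The 10 genes described here are the 5 thrombospondins (Thbs1, Thbs2, Thbs3, Thbs4 and Comp) with Tnc, Spp1, Sparc, Sparcl1 and Postn, of 23699 genes listed per library. They were picked by symbol, with their expression in these same libraries already known, so their differences between the groups are given as a description without p-values. Total RNA was sequenced from 3T3-L1 cells, an established mouse fibroblast line that can turn into fat cells, in 4 libraries per group. One group had received a pool of 3 non-targeting siRNAs (control siRNA) and the other a pool of 3 siRNAs against Fto, an RNA and DNA demethylase of the AlkB family. Both pools were given at 40 nM with a lipid reagent for 24 hours before confluence, in medium with 25 mM glucose and 10% newborn calf serum. All cells were collected as preadipocytes 2 days past confluence. The siRNA was transient, and no library came from an untransfected or a differentiated culture.

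Thrombospondins 1 and 2 form trimers with type I repeats that bind CD36 and that are known for blocking the growth of blood vessels. Thbs3, Thbs4 and Comp form pentamers that lack those repeats. SPARC binds collagen and restrains adipogenesis, osteopontin (Spp1) binds integrins and CD44, and periostin (Postn) helps to assemble collagen fibres. In fat tissue stromal and precursor cells are among the sources of these proteins, and the matrix is remodelled as precursor cells fill with lipid.

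Values are FPKM, fragments mapped to a gene, scaled by its transcript length and by the library's mapped fragments. The intervals in the files correspond to 18.9 to 24.4 M fragments per library, and each library listed 11351 to 11397 genes at 1 FPKM or more. Fto itself was at 54.6 to 56.2 FPKM in the controls and 10.7 to 13.8 FPKM with Fto siRNA (exact two-sided permutation p = 0.0286, the smallest that 4 against 4 allows). The 9 preadipocyte and fibroblast markers checked summed to 7815 to 8227 FPKM in the controls and 8361 to 9276 FPKM with Fto siRNA. They did not move together: 4 were called higher, 2 were called lower and 3 were not called. The log2 fold changes of those called higher were 0.63 for Ly6a, 0.29 for Thy1, 0.24 for Col1a1 and 0.22 for Col3a1. The groups overlapped for Col1a1 and Col3a1. Of those called lower, Pdgfra was at -0.21 and Pdgfrb at -0.14. The part of these markers in the results was not tested. The sums of the 6 mature adipocyte markers overlapped, at 50.8 to 81.8 FPKM and 53.1 to 65.3 FPKM. Most of each sum was Fabp4, at 46.4 to 66.6 FPKM and 48.0 to 62.2 FPKM. None of the 3 tested was called, and their median log2 fold change was -0.44. Adipoq was at -0.77, with 9.19 FPKM in control replicate 4 and at most 3.20 FPKM in the other controls. The endothelial list (4 genes) summed to at most 0.571 FPKM and the epithelial list (4 genes) to at most 0.097 FPKM in any library. Whether the 4 replicates of a group came from separate cultures is not stated. The p-values therefore set differences against the spread between these libraries, which may be technical. In bulk RNA, fewer cells that express a gene and less of its RNA per cell cannot be told apart.

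Thbs2 was the only one of the 10 whose 3′ untranslated region (3′ UTR) held either of the words GACCTTA and ACCTTAA. These words, searched on the transcript strand and overlapping each other by 6 letters, had been singled out earlier because genes that carry them were lowest with Fto siRNA in these same libraries. Their presence is therefore a description and no separate test. The longest annotated 3′ UTR of each member was searched, from 161 bases in Thbs4 to 2104 bases in Thbs1, and that of Thbs2 was 2013 bases. Both Thbs2 sites are shown because they set Thbs2 apart in sequence from the other 9, with the words in capitals and 11 bases on either side. They come from GENCODE M21 on GRCm38, on the minus strand of chromosome 17. The first lies at 14667398 to 14667405, 108 bases after the stop codon, where both words run together as GACCTTAA. The second lies at 14666291 to 14666297, 1216 bases after the stop codon.

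Thbs2 first site: tcctgtttcttGACCTTAActgagtggatc

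Thbs2 second site: gatagaatggaACCTTAAtatgcatcctt

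Among 9793 tested genes with a searched 3′ UTR, 1273 (13.0%) held at least 1 of the words and 210 (2.14%) held GACCTTAA. The carriers of GACCTTAA had a median log2 fold change of -0.14, and 44.3% of them were called lower with Fto siRNA. Genes with neither word had a median of -0.01, and 10.7% of them were called lower. As the words were singled out for low carriers in these same libraries, this contrast restates that choice and is no test. Carriers also had longer 3′ UTRs, with a median of 2649 bases for either word and 2726 bases for GACCTTAA, against 1042 bases for neither. Thbs1, whose 3′ UTR is slightly longer than that of Thbs2, held neither word. The part of these sites in the level of Thbs2 was not tested.

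In the control libraries the 10 genes spanned from listed at 0 to the top 20 of all genes. Sparc was the highest at 1691 ± 82.6 FPKM (SD, n = 4), rank 14 of 23699, and Postn followed at 1624 ± 43.9 FPKM, rank 16. Their ranges overlapped (1600 to 1787 and 1572 to 1666 FPKM), although Sparc was above Postn in 4 of 4 controls. Thbs1 came next at 409 ± 34.3 FPKM, rank 135, then Thbs2 at 279 ± 13.3 FPKM, rank 220, and Spp1 at 161 ± 5.37 FPKM, rank 437. None of these 3 ranges overlapped its neighbours. Sparcl1, a SPARC relative also called hevin, was at 58.4 ± 5.93 FPKM. Thbs3 at 21.1 ± 1.59 FPKM and Tnc at 18.9 ± 1.21 FPKM overlapped, with Thbs3 above Tnc in 3 of 4 controls. Comp was at 1.41 ± 0.097 FPKM, and Thbs4 was listed at 0 in all 8 libraries with an OK status. Sparc and Postn thus made up 39.7% and 38.1% of the members' summed control FPKM, while Thbs1 and Thbs2 made up 9.58% and 6.55%.

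The depth behind these levels differed widely. The deposited 95% intervals of Thbs2 reached 0.996 to 1.52% above the value, which corresponds to 17252 to 40317 fragments per library. Those of Sparc and Postn reached at most 0.73%. Comp rested on 48.0 to 74.0 fragments and its intervals reached 23.2 to 28.9% above the value. These intervals cover counting error only.

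With Fto siRNA, Thbs2 and Spp1 were lower and Thbs3 and Sparc higher among the 9 members that passed the filter of a mean of at least 1 FPKM. Thbs4 did not pass it. Calls are those of limma across 11398 tested genes at an adjusted p threshold of 0.05, which called 794 genes (6.97%) higher and 1401 (12.3%) lower. With median-ratio scaling 47.6% of all calls were higher, and with quantile normalization 47.4%, against 36.2% as deposited. The fit called 2 members higher and 2 lower, and 5 were not called. The groups did not overlap for Sparc and Postn, which were higher, and for Thbs2, Spp1 and Comp, which were lower. Such separation of the groups was found for 9.08% of all tested genes in the higher direction and 15.1% in the lower. The members' median log2 fold change was -0.03, against -0.02 over all tested genes, and spanned -0.89 to 0.24. Since the members were chosen with these values known, nothing is read from the counts.

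**Figure D1:**
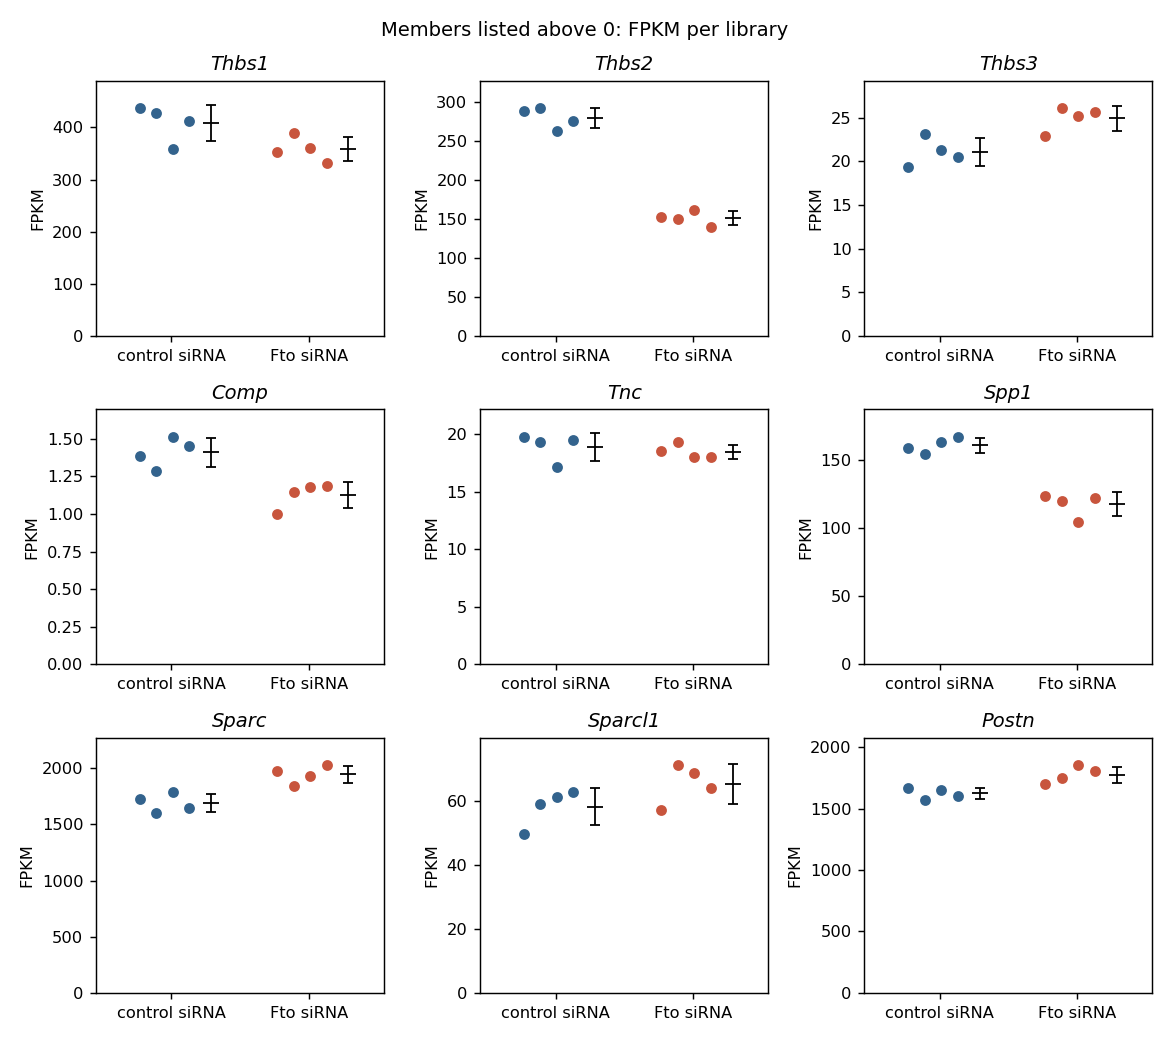
FPKM of the 9 members listed above 0, with 1 panel per gene and each vertical axis starting at 0. Dots are the 4 libraries of each group, and the black mark is the mean with its SD. Thbs2, Spp1 and Comp show separated groups with Fto siRNA below, and Sparc and Postn show separated groups with Fto siRNA above.

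Thbs2, the matrix thrombospondin known for shaping collagen fibrils and for handing MMP2 to the scavenger receptor LRP1, had the largest difference. In the files it spans mm9 chromosome 17 from 14802507 to 14831269. Control libraries held 288, 292, 262 and 275 FPKM, and the Fto siRNA libraries held 152, 149, 162 and 140 FPKM. Every Fto siRNA library lay below every control, with a gap of 100 FPKM or more between the groups. The mean fell from 279 ± 13.3 to 151 ± 9.01 FPKM (SD, n = 4), a change of -46.0%. On the log2 scale it changed by -0.89 with an SE of 0.05 and a 95% interval of -1.0 to -0.78. Of all tested genes, 0.237% had a lower fold change. Leaving out any 1 library moved the log2 fold change of Thbs2 between -0.92 and -0.85.

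Thbs1, which binds CD47 and CD36 and is known as an activator of latent TGF-beta, is the closest relative of Thbs2 by structure. It lies on mm9 chromosome 2, 117937658 to 117952869. Control libraries had 436, 427, 359 and 412 FPKM and the Fto siRNA libraries 352, 389, 360 and 332 FPKM. The groups overlapped, with control replicate 3 level with the Fto siRNA libraries. Control replicate 3 also differed most from the other controls over all tested genes. Its median difference from each was 1.27 to 1.52 SE of the deposited intervals, against 0.897 to 0.979 SE between other controls. The log2 fold change of Thbs1 was -0.19 with an SE of 0.07 and a 95% interval of -0.34 to -0.04, and the gene was not called. Without control replicate 3 it was -0.25 and the gene was called lower.

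Within each library the ratio of Thbs2 to Thbs1 does not depend on library scaling. This ratio was 0.66, 0.684, 0.73 and 0.668 in the controls and 0.432, 0.385, 0.449 and 0.421 with Fto siRNA. The 2 ranges did not overlap, so Thbs2 was lower relative to Thbs1 in each Fto siRNA library. The FPKM of Thbs1 and Thbs2 together ran from 622 to 724 in control libraries and from 472 to 538 in Fto siRNA libraries. Of the summed thrombospondin FPKM, Thbs2 held 38.6 to 40.7% in control libraries and 26.4 to 29.5% in Fto siRNA libraries. The ratio, the sum and the share are built from the values already given, so their separation is no further support.

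**Figure D2:**
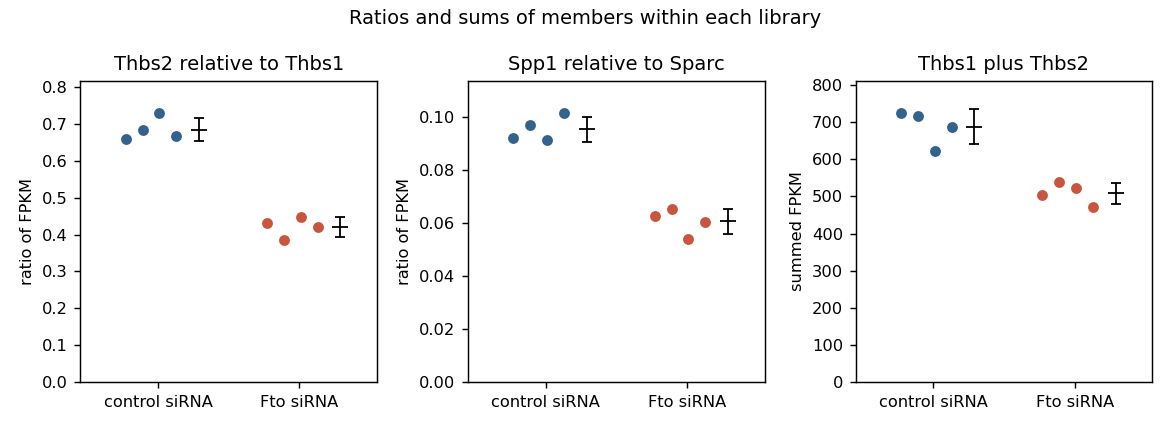
Ratio of Thbs2 to Thbs1 (left), ratio of Spp1 to Sparc (middle) and summed FPKM of Thbs1 and Thbs2 (right) in each library. Axes start at 0, dots are libraries, and black marks are means with SD over 4 libraries. In each panel all Fto siRNA libraries lie below all controls, for Thbs2 to Thbs1 at 0.385 to 0.449 against 0.66 to 0.73. The panels are built from the members' own values, so this separation is no further support.

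The pentameric thrombospondins were low, and only Thbs3 was called. Thbs3, on mm9 chromosome 3, 89019109 to 89030759, held 19.3, 23.1, 21.3 and 20.5 FPKM in the controls and 22.9, 26.1, 25.2 and 25.6 FPKM with Fto siRNA. Fto siRNA replicate 1 lay just below control replicate 2, so the groups overlapped. Thbs3 had a log2 fold change of 0.24 with an SE of 0.06 (95% interval 0.11 to 0.37), opposite in sign to those of Thbs1 and Thbs2. Without Fto siRNA replicate 2 it was 0.22 and Thbs3 was not called.

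Comp, the cartilage oligomeric matrix protein, lies on mm9 chromosome 8, 72897447 to 72905965. It held 1.39, 1.29, 1.51 and 1.45 FPKM in the controls and 1.003, 1.14, 1.18 and 1.19 FPKM with Fto siRNA. The groups did not overlap, although the deposited intervals of single libraries, 23.2 to 28.9% on either side, are wider than the difference of 20.0% between the means. Comp had a log2 fold change of -0.23 with an SE of 0.09 (95% interval -0.43 to -0.03), and it was not called. In limma without a trend, with the same fold change, it was called lower. The chondrocyte markers Acan, Col2a1, Col10a1, Matn1 and Matn3 were at most 0.0793 FPKM in every library, with Acan listed at 0. Sox9, the transcription factor of that list, was at 26.3 to 31.1 FPKM in the controls and 28.8 to 30.8 FPKM with Fto siRNA.

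Spp1 encodes osteopontin, a phosphorylated ligand of integrins and CD44 made by bone cells, macrophages and fibroblasts. It lies on mm9 chromosome 5, 104864130 to 104870072. Control libraries had 159, 155, 163 and 167 FPKM and the Fto siRNA libraries 123, 120, 104 and 122 FPKM. No Fto siRNA library reached the controls, and replicate 3 was the lowest. Its mean went from 161 ± 5.37 FPKM down to 117 ± 8.84 FPKM (± SD over 4 libraries each), which is -0.45 on the log2 scale with an SE of 0.05 (95% interval -0.57 to -0.33). Spp1 stayed called lower in all 17 alternatives, at -0.48 to -0.40.

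Markers of other cell types that make osteopontin were low. The 6 osteoblast markers summed to 0.475 to 1.84 FPKM in the controls and 0.991 to 1.71 FPKM with Fto siRNA. The 5 macrophage markers summed to 15.8 to 21.8 FPKM in the controls and 13.0 to 14.4 FPKM with Fto siRNA, lower with Fto siRNA as Spp1 was. Most of that sum was Lyz2, the lysozyme of myeloid cells, which fell from 16.7 ± 2.38 to 11.6 ± 0.492 FPKM over 4 libraries each (± SD), by -0.50 on the log2 scale with a limma adjusted p of 0.0032. Of the other markers on that list, Emr1 (F4/80) was at 0 in all 8 libraries and Ptprc (CD45) at no more than 0.00949 FPKM. Csf1r was at 0.576 to 0.783 FPKM in the controls and at 0.796 to 1.03 FPKM after Fto siRNA, below the filter and untested. Cd68 was at 0.709 to 1.24 FPKM in the controls and 0.928 to 1.47 FPKM with Fto siRNA. Its log2 fold change was 0.21, opposite in sign to that of Lyz2, and it was not called. The part of these genes in the Spp1 difference was not tested.

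Spp1 shares a stretch of mm9 chromosome 5 with Sparcl1, whose locus is 104508128 to 104543107. The 4 genes listed between them, Dspp, Dmp1, Ibsp and Mepe, encode matrix proteins of bone and teeth and reached no more than 0.406 FPKM in any library. Sparcl1 held 49.8, 59.2, 61.5 and 63.1 FPKM in the controls and 57.2, 71.3, 69.0 and 64.3 FPKM with Fto siRNA. The groups overlapped widely, with 1 library of each group below the rest. Its log2 fold change was 0.16 with an SE of 0.08 (95% interval -0.02 to 0.35), and it was not called. The estimates were -0.45 for Spp1 and 0.16 for Sparcl1, but the interval of Sparcl1 includes 0, so its direction is not settled.

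Sparc and Postn were the most abundant members, and of these Sparc was called higher and Postn was not called. Sparc, on mm9 chromosome 11, 55208003 to 55233582, held 1726, 1600, 1787 and 1649 FPKM in the controls and 1976, 1841, 1933 and 2026 FPKM with Fto siRNA. The groups did not overlap, by a margin smaller than the SD of either group. The log2 fold change of Sparc was 0.20 with an SE of 0.05 (95% interval 0.09 to 0.32), and it was called higher. It was not called without control replicate 2 (log2 fold change 0.18) or 4 (0.19), without Fto siRNA replicate 1 (0.19), 3 (0.20) or 4 (0.18), or with no filter on low values (0.20). With quantile normalization it was 0.11 and was called.

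Postn lies on mm9 chromosome 3, 54165029 to 54194963. It held 1666, 1572, 1655 and 1604 FPKM in the controls and 1702, 1750, 1853 and 1804 FPKM with Fto siRNA. The groups did not overlap, and the nearest libraries were 1666 and 1702 FPKM. Postn had a log2 fold change of 0.13 with an SE of 0.05 (95% interval 0.03 to 0.23), and it was not called. Postn was called higher with median-ratio scaling (0.15), with a filter of at least 5 FPKM (0.13) and without control replicate 3 (0.14), and with quantile normalization it was 0.02. Sparc and Postn together held 3173 to 3442 FPKM in the controls and 3590 to 3829 FPKM with Fto siRNA. Within libraries the ratio of Spp1 to Sparc lay between 0.0913 and 0.101 in control libraries and between 0.054 and 0.0652 in Fto siRNA libraries. Every Fto siRNA library had less Spp1 and more Sparc than every control, so this ratio could not overlap and is no further result.

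Tnc, the tenascin of developing and wounded tissue, had the smallest difference. It lies on mm9 chromosome 4, 63620819 to 63708049. Control libraries had 19.8, 19.3, 17.1 and 19.5 FPKM and the Fto siRNA libraries 18.6, 19.3, 18.03 and 18.06 FPKM. All Fto siRNA libraries lay inside the range of the controls. Tnc had a log2 fold change of -0.03 with a 95% interval of -0.14 to 0.08, and it was not called in any of the 17 alternatives.

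**Figure D3:**
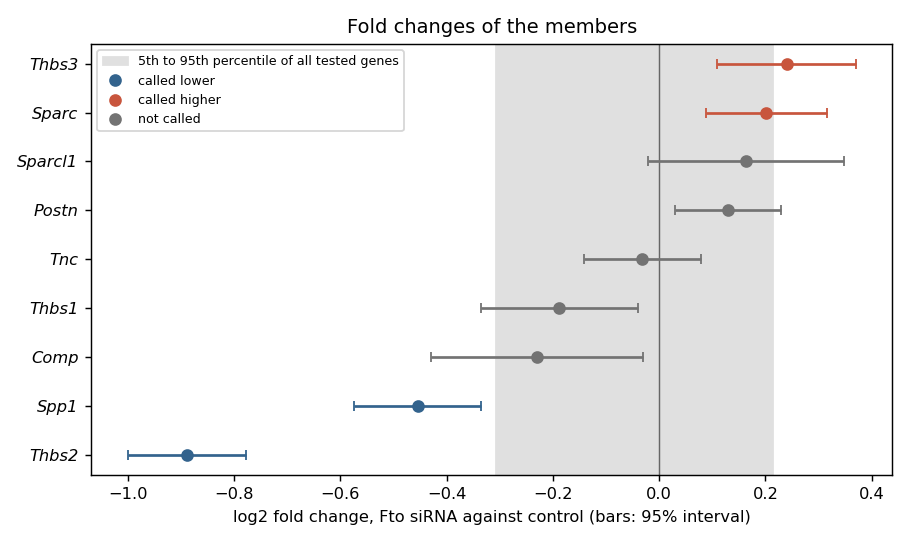
Log2 fold change of each tested member (horizontal axis) with its 95% interval, coloured by whether the fit called it. The grey band runs from the 5th to the 95th percentile of all tested genes, -0.31 to 0.21. Thbs2 at -0.89 and Spp1 at -0.45 lie outside it to the left, and Thbs3 at 0.24 lies just outside it to the right.

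The profile of Thbs2 over the 8 libraries was nearly matched by that of a few other genes. Likeness was the root mean square difference between log2 values centred on each gene's mean, over 7174 candidate genes with a mean of at least 10 FPKM. The nearest was Mlec, a carbohydrate-binding protein of the endoplasmic reticulum, at 0.0591. It was followed by Marcks, a substrate of protein kinase C, at 0.104, the autophagy gene Becn1 at 0.104, the aldo-keto reductase gene Akr1c14 at 0.125 and the peptide hormone gene Adm at 0.125. Mlec held 113 to 123 FPKM in the controls and 62.8 to 68.5 FPKM with Fto siRNA, a log2 fold change of -0.86. The 3′ UTRs of Mlec and Marcks held GACCTTAA, as that of Thbs2 did, and those of Becn1, Akr1c14 and Adm held neither word. Over all searched genes, 2.14% held GACCTTAA. The words had been singled out for low carriers in these same libraries, so their presence among genes picked for a like fall is no separate result. The measure picks genes with the same difference between the groups, so it gives no further support to that difference.

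**Figure D4:**
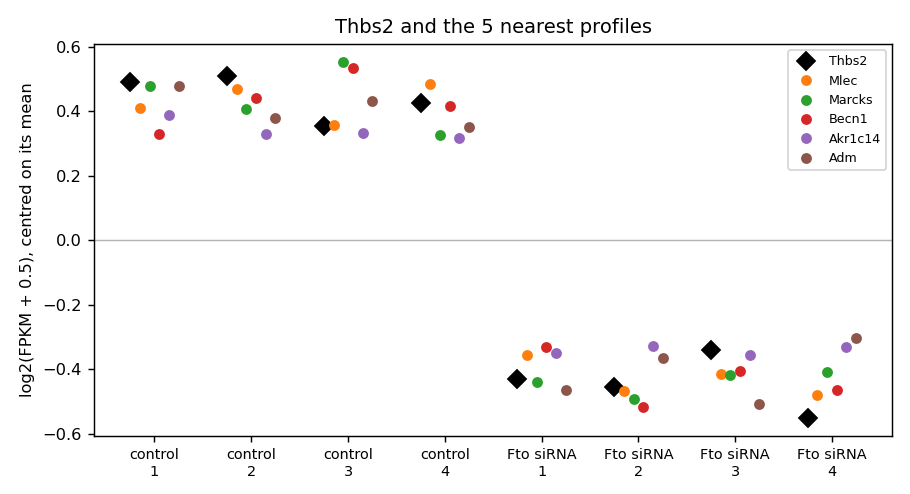
Log2(FPKM + 0.5) centred on the gene's mean for Thbs2 (black diamonds) and the 5 genes with the nearest profiles (coloured dots) in each library. Dots of a library are spread sideways for legibility. For all 6 genes the 4 controls lie above 0 and the 4 Fto siRNA libraries below 0.

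Other matricellular and related secreted matrix genes were mixed, as the members were. The list, like those that follow, was drawn up with earlier results of these data known. Up to 4 genes per list were named for having its lowest p. Their adjusted p-values, from the fit across all tested genes, are therefore a description and no separate support. Of 24 listed genes 11 were tested, of which 4 rose, 1 fell and 6 were not called. Over all tested genes 6.97% were called higher and 12.3% lower. The median log2 fold change of the list was -0.03, against -0.02 over all tested genes. Spon2, a spondin with a thrombospondin type I repeat, rose from 13.3 ± 0.779 to 23.0 ± 0.189 FPKM over 4 libraries each (± SD), by 0.77 on the log2 scale with a limma adjusted p of 5.3e-06. Its controls held 12.4 to 14.1 FPKM and its Fto siRNA libraries 22.8 to 23.3 FPKM, well apart. The tenascin gene Tnxb rose from 6.01 ± 0.661 to 8.65 ± 0.765 FPKM (0.49, limma adjusted p = 0.0035). A second tenascin gene, Tnn, outside the naming rule and named after its values were seen, rose from 1.26 to 2.71 FPKM (0.86, limma adjusted p = 0.024). Tnn was not called without Fto siRNA replicate 2 (log2 fold change 0.69, limma adjusted p = 0.055) or without Fto siRNA replicate 4 (0.84, limma adjusted p = 0.057). Nor was it called when low genes were kept in the fit (0.86, limma adjusted p = 0.071). Fstl1, a follistatin-like protein with a SPARC-type domain, rose from 828 ± 13.5 to 951 ± 23.5 FPKM (0.20, limma adjusted p = 0.0049). Wisp2, a CCN family protein, fell from 34.3 ± 1.70 to 24.9 ± 1.62 FPKM (-0.46, limma adjusted p = 3.8e-04).

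Receptors of matricellular proteins were called in both directions. Of 21 genes 14 were tested, of which 6 rose, 2 fell and 6 were not called (6.97% higher and 12.3% lower over all tested genes). Their median log2 fold change was 0.16. As the list was chosen with the results known, nothing is read from these counts. Cd47, the receptor for the carboxyl end of thrombospondin 1, held 41.8 to 46.4 FPKM in the controls and 54.9 to 58.7 FPKM with Fto siRNA (log2 fold change 0.36, limma adjusted p = 3.3e-04). Cd44, a receptor of hyaluronan and osteopontin, held 36.5 to 38.0 and 46.5 to 51.0 FPKM (0.37, limma adjusted p = 1.6e-04). Itgb3, the beta chain of an integrin that binds osteopontin, periostin and thrombospondins, held 14.2 to 16.1 and 18.5 to 19.7 FPKM (0.34, limma adjusted p = 7.4e-04). The groups of these 3 genes did not overlap. Calr, which encodes calreticulin and serves at the cell surface as a coreceptor of thrombospondins, fell from 980 ± 24.7 to 839 ± 22.6 FPKM (-0.22, limma adjusted p = 0.0037). Cd36 held 3.26 to 5.12 FPKM in the controls and 3.03 to 4.09 FPKM with Fto siRNA, and the groups overlapped.

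The matrix proteins that members bind included genes called higher, called lower and not called. Of 19 genes 17 were tested, of which 8 rose, 1 fell and 8 were not called, beside 6.97% higher and 12.3% lower over all tested genes. Their median log2 fold change was 0.20. Matn2, an adaptor between matrix fibrils, rose from 129 ± 2.95 to 160 ± 5.30 FPKM over 4 libraries each (± SD), by 0.31 on the log2 scale with a limma adjusted p of 3.8e-04. Col5a1 and Col6a3, chains of collagens V and VI, rose by log2 fold changes of 0.29 (limma adjusted p = 0.0097) and 0.26 (limma adjusted p = 0.014). Lox, the collagen cross-linking enzyme, fell from 701 ± 15.0 to 581 ± 20.6 FPKM (-0.27, limma adjusted p = 0.0012). The count of 8 called higher was 4 with no filter, 5 with quantile normalization, 5 without any 1 of control replicates 2 and 4 and Fto siRNA replicates 1 and 4, and 3 without Fto siRNA replicate 3. Matn2 overlaps 9430069I07Rik, which was at 0.222 FPKM or less on average in each group.

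Proteases known to cut matricellular proteins went both ways. Of 13 genes 11 were tested, of which 3 rose, 4 fell and 4 were not called, against 6.97% higher and 12.3% lower among all tested genes. The list's median log2 fold change was -0.04. Mmp14, a membrane-bound metalloproteinase, fell from 344 ± 10.3 to 238 ± 14.4 FPKM over 4 libraries each (± SD), by -0.53 on the log2 scale with a limma adjusted p of 8.6e-05. Plau, the urokinase gene, fell from 7.19 ± 0.563 to 4.09 ± 0.509 FPKM (-0.75, limma adjusted p = 3.6e-04). Mmp2, which thrombospondin 2 helps to clear, fell from 745 ± 12.6 to 639 ± 22.7 FPKM (-0.22, limma adjusted p = 0.0037). Mmp9 rose from 15.8 ± 0.786 to 19.8 ± 0.720 FPKM (0.32, limma adjusted p = 0.0012).

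Latent TGF-beta, its binding proteins and its receptors were mostly not called. Of 18 genes 17 were listed and 16 tested, of which limma called 1 higher and 0 lower (all tested genes: 6.97% and 12.3%). Before adjustment, 2 were higher and 0 lower with a p under 0.05. The median log2 fold change was 0.01. Lrrc32, which anchors latent TGF-beta at the cell surface, rose from 1.69 ± 0.182 to 2.27 ± 0.206 FPKM over 4 libraries each (± SD), by 0.34 on the log2 scale with a limma adjusted p of 0.025. When any 1 of control replicates 2 and 4 and Fto siRNA replicates 1 and 3 was left out, Lrrc32 was not called (limma adjusted p 0.0643 to 0.0667, log2 fold change 0.29 to 0.33). Tgfb1, the cytokine that thrombospondin 1 is known to activate, held 7.34, 7.22, 8.40 and 7.20 FPKM in the controls and 7.05, 6.73, 7.06 and 6.90 FPKM with Fto siRNA (log2 fold change -0.11, limma adjusted p = 0.20). Smad2 and Ltbp4 had log2 fold changes of 0.11 (limma adjusted p = 0.12) and 0.13 (limma adjusted p = 0.19). Among the genes named from the 5 partner lists, the 3′ UTRs of Lox, Mmp2 and Smad2 held GACCTTA or ACCTTAA, with log2 fold changes of -0.27, -0.22 and 0.11. Wisp2, named from these lists too, had no 3′ UTR searched. Over all searched genes, 13.0% held at least 1 of the words.

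**Figure D5:**
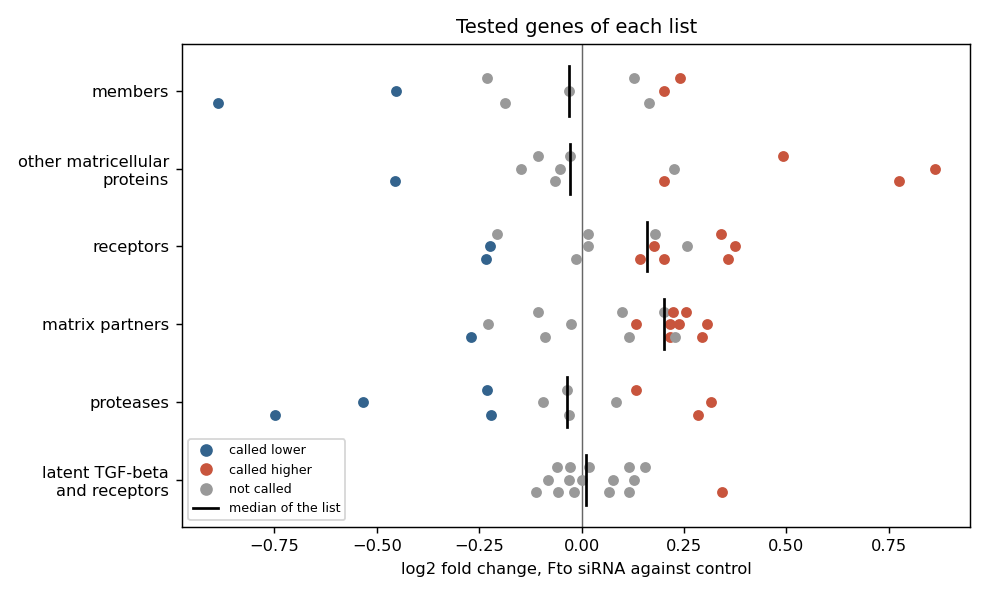
Log2 fold change (horizontal axis) of every tested gene in the member list and the 5 lists of partner genes, 1 dot per gene, coloured by whether the fit called it, with the median of each list as a black line. Dots are spread vertically for legibility. The medians of the receptors (0.16) and matrix partners (0.20) lie to the right of 0, and those of the other 4 lists lie between -0.04 and 0.01.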

How the data were processed

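The submitters' processing notes name TopHat2 2.0.11, Cufflinks 2.2.1 and mm9. For annotation and strand setting: not given in the sources used here. The deposited FPKM come with intervals and a status per gene, per the file headers. FPKM are not counts, so no count test was run. Fragments behind a value are those whose counting error gives the interval's width.

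Groups follow the labels. Tests used log2(FPKM + 0.5) and genes averaging at least 1 FPKM over the 8 libraries. A fold change on this scale understates that of low genes. limma 3.58.1 (R 4.3.3) was fitted to all 11398 such genes as limma-trend. Its p-values are two-sided and adjusted by Benjamini and Hochberg's method. Members and lists were chosen with earlier results of these data known. Named are Fto, the members, up to 4 genes per list with the lowest p and the 5 nearest profiles. Loci are as deposited, counted from 1. 3′ UTRs of at least 50 bases came from GENCODE M21 (GRCm38). The fit was tested on simulated data. Python 3.11.15 was used. The alternatives were other pseudocounts, filters, scalings and priors, a replicate block and leaving out each library.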

Additional observations from a re-analysis of the deposited data

Results flagged for a closer look

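In 3 of 88 groups of 4 libraries, 1 library lay far from the other 3 by Dixon's criterion, which chance meets in about 1 group in 20. No member was among them. Calr was at 1017 FPKM in control replicate 3, against 969 FPKM in the next highest control. Tgfb1 was at 8.40 FPKM in control replicate 3, against 7.34 FPKM in the next highest. Smad2 was at 9.81 FPKM in Fto siRNA replicate 2, against 10.6 FPKM in the next lowest.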

How the results depend on the processing

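Over 17 alternatives, 8 of which leave out 1 library, none of the 35 tested genes named by the rule changed direction. Of their 593 values 577 kept their side of the threshold, 11 lost the call and 5 gained it. Thbs2 and Spp1 were called lower in all of them. The count of members called higher, 2, was 1 with no filter on low values, and 1 to 3 when 1 library was left out. The count called lower was 2 to 3. Over all genes, 550 to 1091 were called higher and 992 to 1433 lower. The labels state no pairing by replicate number, and deviations of same-numbered libraries correlated at 0.07, -0.04, -0.19 and -0.09. Correlations over all genes cannot exclude that same-numbered libraries were handled together. With the replicate block 628 genes were called higher and 1133 lower, with 2 members each way. The comparison of Comp is limited by depth, at 48.0 to 74.0 fragments per library. In any fit that leaves out a library the other group keeps 4.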
